A study of Mus musculus with 18 samples.

Results

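The genes described here are 40 cell cycle genes that act in S phase or in mitosis, followed over 9 sorted mouse immune cell populations. They were chosen by symbol, and 39 of the 40 were measured by a probe set with a single gene symbol, among 19752 genes tested. Of the measured members, 18 serve DNA replication in S phase and 21 serve mitosis; Ccnb1, which encodes cyclin B1, had no such probe set. Levels came from 18 Affymetrix Mouse Gene 1.0 ST arrays, 2 per population, and all arrays were of male C57BL/6 mice aged 6 weeks that had received 10000 U of interferon gamma (IFNg) under the skin 2 h before. The myeloid populations were F4/80+ ICAM2+ macrophages of the peritoneal cavity (MF), CD11c+ MHCII+ Flt3+ dendritic cells of the spleen (DC) and Ly6G+ granulocytes of the spleen (GN). The lymphoid populations, all from spleen, were NK cells (NK1.1+ TCRB-), NK1.1+ T cells (NKT; NK1.1+ TCRB+), CD4+ T cells (T4; CD4+ TCRB+), CD8+ T cells (T8; CD8+ TCRB+), gamma delta T cells (Tgd; TCRgd+ TCRB-) and CD25+ CD4+ T cells (Treg; CD4+ TCRB+ CD25+). Every population carried the treatment, and untreated mice were not analysed here. Whether the 2 arrays of a population stand for different animals is not stated in the labels, so the spread behind each p-value may be technical.

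A dividing cell first copies its DNA and then separates the copies. Genes of the first step, such as those of the MCM helicase that unwinds DNA and of the enzymes that make nucleotides, are switched on at the entry into S phase, largely through E2F transcription factors. Genes of the later step, among them cyclins A and B, the kinases that drive mitosis, kinetochore proteins and spindle motors, peak in G2 and mitosis, and many of their promoters hold a short element called CHR, often near CCAAT boxes. Most lymphocytes in the spleen of a resting mouse are not dividing, peritoneal macrophages can renew themselves by division, and neutrophils are end cells whose dividing precursors carry granule genes.

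Promoter windows of RefSeq (GRCm38.p6, 250 bases before to 50 after the start) were found for 14 of the 18 S phase members and for 17 of the 22 listed mitosis members. E2F letters, searched on both strands as TTTCCCGC, TTTCGCGC, TTTGCCGC or TTTGGCGC, stood in 6 of 16 windows of S phase members (37.5%), in 1 of 18 windows of mitosis members (5.56%) and in 2.26% of all 32851 windows. The CHR letters TTTGAA stood in 12.5% of S phase windows, in 72.2% of mitosis windows and in 17.9% of all windows. Within 50 bases of the start they stood in 6.25%, 66.7% and 4.94% of the same sets. CCAAT, on either strand, stood in 75.0% of S phase windows, 88.9% of mitosis windows and 37.4% of all windows. These matches are letters in a window and no measure of binding.

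The windows of 5 members are printed 5′ to 3′ on the gene's strand. Every E2F, CHR and CCAAT match on either strand is in capitals (CCAAT on the other strand reads ATTGG). These 2 S phase genes and 3 mitosis genes turn up again in the values below. They are examples and do not stand for their lists. Only 6 of 16 S phase windows held E2F letters, and Cdk1 had the only mitosis window that did. Where E2F matches on opposite strands overlap they run together, as in Mcm6. Mcm6 lies at chr1:128359656-128359955 (minus strand), Mcm5 at chr8:75109259-75109558 (plus), Ccnb2 at chr9:70421505-70421804 (minus), Kif23 at chr9:61946750-61947049 (minus) and Cdk1 at chr10:69352863-69353162 (minus).
Mcm6: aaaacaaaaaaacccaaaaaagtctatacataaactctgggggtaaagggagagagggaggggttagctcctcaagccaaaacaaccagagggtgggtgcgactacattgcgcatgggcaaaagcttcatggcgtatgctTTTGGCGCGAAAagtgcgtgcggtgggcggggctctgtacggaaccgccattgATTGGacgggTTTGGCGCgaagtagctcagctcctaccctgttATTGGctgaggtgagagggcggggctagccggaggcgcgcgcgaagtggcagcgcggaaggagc
Mcm5: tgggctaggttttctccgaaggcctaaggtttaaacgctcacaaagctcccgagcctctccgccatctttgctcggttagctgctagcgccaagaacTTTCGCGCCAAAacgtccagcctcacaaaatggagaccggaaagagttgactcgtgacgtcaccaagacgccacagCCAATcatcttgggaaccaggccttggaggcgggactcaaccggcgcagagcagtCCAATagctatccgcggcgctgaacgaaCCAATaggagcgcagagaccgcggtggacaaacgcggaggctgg
Ccnb2: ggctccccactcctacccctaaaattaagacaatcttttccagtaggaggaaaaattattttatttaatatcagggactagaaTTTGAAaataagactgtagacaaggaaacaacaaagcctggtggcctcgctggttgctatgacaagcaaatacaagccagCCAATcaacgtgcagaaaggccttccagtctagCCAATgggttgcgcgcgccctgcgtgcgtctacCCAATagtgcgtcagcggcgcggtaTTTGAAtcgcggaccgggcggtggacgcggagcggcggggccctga
Kif23: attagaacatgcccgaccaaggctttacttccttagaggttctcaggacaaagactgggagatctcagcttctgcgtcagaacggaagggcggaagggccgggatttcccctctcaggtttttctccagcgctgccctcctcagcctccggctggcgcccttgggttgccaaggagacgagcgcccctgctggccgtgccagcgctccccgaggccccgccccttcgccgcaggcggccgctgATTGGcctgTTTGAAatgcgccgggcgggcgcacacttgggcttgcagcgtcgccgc
Cdk1: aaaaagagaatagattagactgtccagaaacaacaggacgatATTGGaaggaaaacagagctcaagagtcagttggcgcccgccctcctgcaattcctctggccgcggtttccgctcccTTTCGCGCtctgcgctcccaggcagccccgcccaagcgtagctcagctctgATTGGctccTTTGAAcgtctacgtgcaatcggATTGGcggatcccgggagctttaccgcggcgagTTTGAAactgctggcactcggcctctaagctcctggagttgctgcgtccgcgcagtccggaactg
Mcm6 and Mcm5 hold E2F letters and no CHR letters. Ccnb2 and Kif23 hold CHR letters and no E2F letters, and Cdk1 holds both.

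Across the 9 populations the members differed widely. In limma's moderated F test 34 of 39 members passed, which here means an adjusted p under 0.05 with population means that span 2-fold or more, against 39.0% of all genes tested. Among S phase members 14 of 18 passed, with a median range of 1.61 on the log2 scale, and among mitosis members 20 of 21 passed, with a median range of 2.19; the median range of all genes was 0.71. Mcm4 (range 0.85), Cdc6 (0.75), Cdc45 (0.97) and Cdc20 (0.76) had an adjusted p under the threshold but less than a 2-fold range, and Gins2, a subunit of the GINS part of the helicase, had a range of 0.40 with an adjusted p of 0.0963. In bulk samples fewer cells that express a gene and less RNA per cell cannot be told apart. The 18 arrays had median intensities of 138.5 to 151.0, and Pearson's r over genes was 0.990 to 0.996 within populations and 0.826 to 0.991 between them.

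The highest population mean fell in MF for 31 of 39 members, in GN for 4 (Cdc6, Cdc20, Aurka and Kif23), in NK for 3 (Mcm4, Pcna and Gins2) and in T8 for 1 (Ccne1). The lowest fell in NKT for 17 members, of which 14 were mitosis genes, and in GN for 9, all of them S phase genes. Shares of all genes by highest and lowest population are not given here, so these counts describe the members alone.

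**Figure D1:**
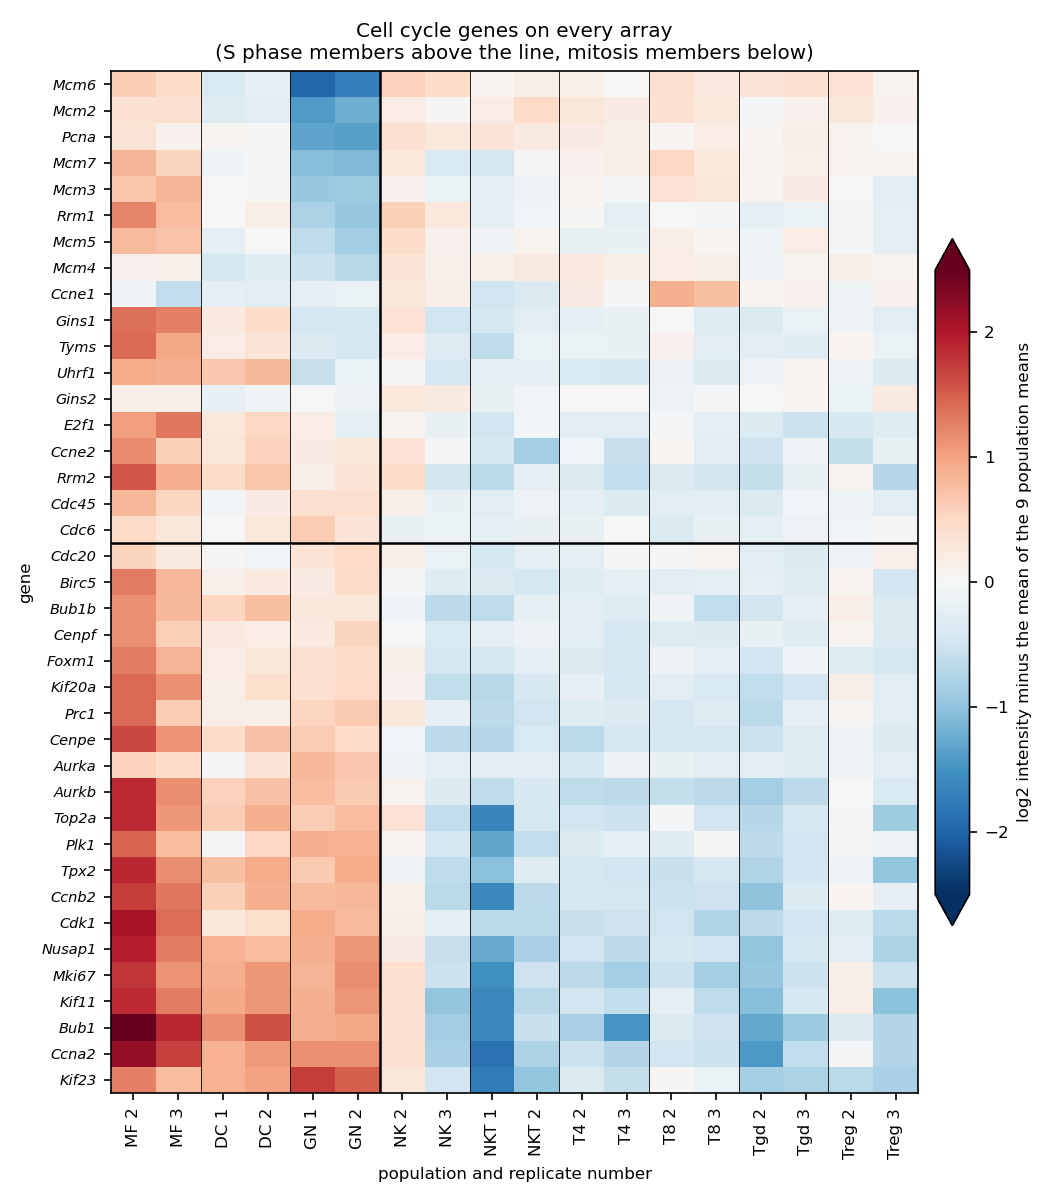
Log2 intensity of the 39 measured members on each of the 18 arrays, minus the mean of the 9 population means of that gene; S phase members stand above the line and mitosis members below it. Both MF columns are red over most rows, and the GN columns are blue for the MCM genes, Pcna and Rrm1 and red for every mitosis gene.

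Among the S phase genes, all 6 MCM helicase subunits were lowest in GN, with ranges over populations from 0.85 for Mcm4 to 2.38 for Mcm6. Mcm6 had log2 levels of 9.71 and 9.54 in MF, 8.71 and 8.87 in DC and 7.12 and 7.38 in GN, and over the 12 lymphoid arrays its lowest, median and highest levels were 9.10, 9.38 and 9.67. Both GN arrays lay below every other array and both DC arrays below every lymphoid one, while MF overlapped the lymphoid range. Its range was the largest of the S phase members (adjusted p 3.28e-10). Mcm7 stood at 9.47 and 9.18 in MF, 8.50 and 8.56 in DC and 7.56 and 7.51 in GN, against 8.20, 8.71 and 9.12 as lowest, median and highest of the lymphoid arrays (range 1.78, adjusted p 9.83e-06). For this subunit MF lay above all lymphoid arrays and GN below them.

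Of the other helicase subunits, Mcm2 averaged 7.60 in GN against a lymphoid mean of 9.12, Mcm3 6.94 against 7.88, Mcm4 8.68 against 9.44 and Mcm5 8.32 against 9.09. On both GN arrays each of the 6 MCM genes lay below all 12 lymphoid arrays. Of the 6, only Mcm3, Mcm5 and Mcm7 lay in MF above all lymphoid arrays. Pcna, the sliding clamp of the DNA polymerases, stood at 11.86 and 11.63 in MF, 11.58 and 11.54 in DC and 10.21 and 10.16 in GN, against 11.53, 11.69 and 11.92 in the lymphoid arrays. Only GN was set apart, and the 2 probe sets of Pcna had nearly the same values on every array.

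The genes of nucleotide supply went different ways. Rrm1, the large subunit of ribonucleotide reductase, had levels of 10.36 and 9.92 in MF, 9.13 and 9.32 in DC and 8.36 and 8.20 in GN, against 8.90, 9.08 and 9.75 in the lymphoid arrays (range 1.86, adjusted p 8.95e-07). Rrm2, the small subunit of the same enzyme, whose level peaks in S phase, had levels of 9.73 and 9.07 in MF, 8.61 and 8.85 in DC and 8.32 and 8.50 in GN, against 7.44, 7.74 and 8.60 in the lymphoid arrays (range 1.74, adjusted p 0.000281). GN was thus the lowest population for Rrm1, whereas for Rrm2 both GN arrays lay above 11 of the 12 lymphoid arrays, the exception being NK replicate 2. Tyms, which makes thymidylate, had levels of 9.17 and 8.72 in MF, 7.94 and 8.07 in DC and 7.41 and 7.30 in GN.

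Of the genes that load and start the helicase, Gins1 had levels of 7.47 and 7.36 in MF, 6.34 and 6.55 in DC and 5.65 and 5.68 in GN, against 5.59, 5.84 and 6.46 in the lymphoid arrays (range 1.75, adjusted p 5.59e-06). MF stood alone at the top for this gene. Cdc6, which loads the helicase, had levels of 7.24 and 7.04 in MF, 6.77 and 7.02 in DC and 7.39 and 7.09 in GN, against 6.41, 6.57 and 6.77 in the lymphoid arrays. Cdc45, a part of the active helicase, had levels of 8.58 and 8.30 in MF, 7.69 and 7.97 in DC and 8.17 and 8.18 in GN, against 7.40, 7.51 and 7.90 in the lymphoid arrays. These were the 2 S phase members for which both GN arrays lay above all lymphoid arrays.

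The regulators differed too. E2f1, a transcription factor of S phase entry, had levels of 8.79 and 9.06 in MF, 7.99 and 8.26 in DC and 7.92 and 7.52 in GN, against 7.20, 7.47 and 7.78 in the lymphoid arrays. Uhrf1, which keeps DNA methylation through replication, averaged 8.19 in MF, 8.01 in DC and 6.91 in GN. Of the E cyclins, which drive entry into S phase, Ccne2 averaged 7.29 in MF, 6.84 in DC and 6.64 in GN, while Ccne1 had its highest levels in T8, at 9.08 and 8.94.

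Of the 21 mitosis genes, 18 were highest in MF, and for all 21 the lowest population was a lymphoid one. Lymphoid populations make up 6 of the 9, and the same shares of all genes are not given here. Bub1, a kinase of the spindle checkpoint, had levels of 9.22 and 8.50 in MF, 7.75 and 8.19 in DC and 7.52 and 7.55 in GN, against a lowest and a median level of 4.99 and 5.84 over the 12 lymphoid arrays, of which NK replicate 2 came nearest to GN and Treg replicate 2 followed at 6.28. Its range of population means, 3.39, was the largest among all members (adjusted p 5.84e-07). Ccna2, which encodes cyclin A2, had levels of 10.54 and 10.05 in MF, 9.22 and 9.40 in DC and 9.49 and 9.49 in GN, against 6.48, 7.66 and 8.76 in the lymphoid arrays (range 3.28, adjusted p 2.57e-06). Ccnb2, the B cyclin measured here, had levels of 11.29 and 10.88 in MF, 10.15 and 10.44 in DC and 10.34 and 10.39 in GN, against 7.94, 9.08 and 9.69 in the lymphoid arrays (range 2.66, adjusted p 2.25e-06). For all of these the 6 myeloid arrays lay above the 12 lymphoid ones. Cdk1, the kinase that these cyclins bind, had levels of 9.73 and 9.06 in MF, 7.95 and 8.11 in DC and 8.59 and 8.46 in GN, against 6.92, 7.12 and 7.80 in the lymphoid arrays.

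The spindle genes held the other large ranges. Kif23, a motor of the central spindle that serves the final separation of daughter cells, had levels of 9.31 and 8.82 in MF, 8.91 and 9.06 in DC and 9.78 and 9.55 in GN, against 6.30, 7.41 and 8.35 in the lymphoid arrays (range 2.99, adjusted p 3.16e-08). GN lay highest for this gene, with both arrays above every other array. Kif11, the motor that pushes the spindle poles apart, had levels of 9.61 and 9.03 in MF, 8.69 and 8.83 in DC and 8.64 and 8.84 in GN, against 6.13, 7.12 and 8.16 in the lymphoid arrays (range 2.73, adjusted p 6.31e-05). Nusap1, which binds spindle microtubules, had levels of 9.27 and 8.61 in MF, 8.18 and 8.08 in DC and 8.22 and 8.41 in GN, against 6.04, 6.77 and 7.52 in the lymphoid arrays (range 2.67, adjusted p 3.06e-07). Top2a, the topoisomerase that untangles the copied chromosomes, had levels of 9.80 and 9.02 in MF, 8.54 and 8.85 in DC and 8.56 and 8.70 in GN, against 6.29, 7.46 and 8.29 in the lymphoid arrays (range 2.52, adjusted p 0.000122). No myeloid array overlapped the lymphoid arrays for these genes.

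The remaining mitosis members had ranges between 0.76 and 2.48. They were the kinases Aurka, Aurkb and Plk1, the checkpoint and kinetochore genes Bub1b, Cenpe and Cenpf, the activator of chromosome separation Cdc20, the spindle genes Tpx2, Prc1 and Kif20a, the Aurora partner Birc5, the proliferation antigen gene Mki67 and the transcription factor gene Foxm1. Mki67, widely used to stain dividing cells, averaged 9.89 in MF, 9.44 in DC and 9.45 in GN, against a lymphoid mean of 7.87. Aurka averaged 8.33 in MF, 7.97 in DC and 8.56 in GN, against a lymphoid mean of 7.57. Aurka, Cdc20 and Kif23 were the mitosis members with their highest mean in GN.

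**Figure D2:**
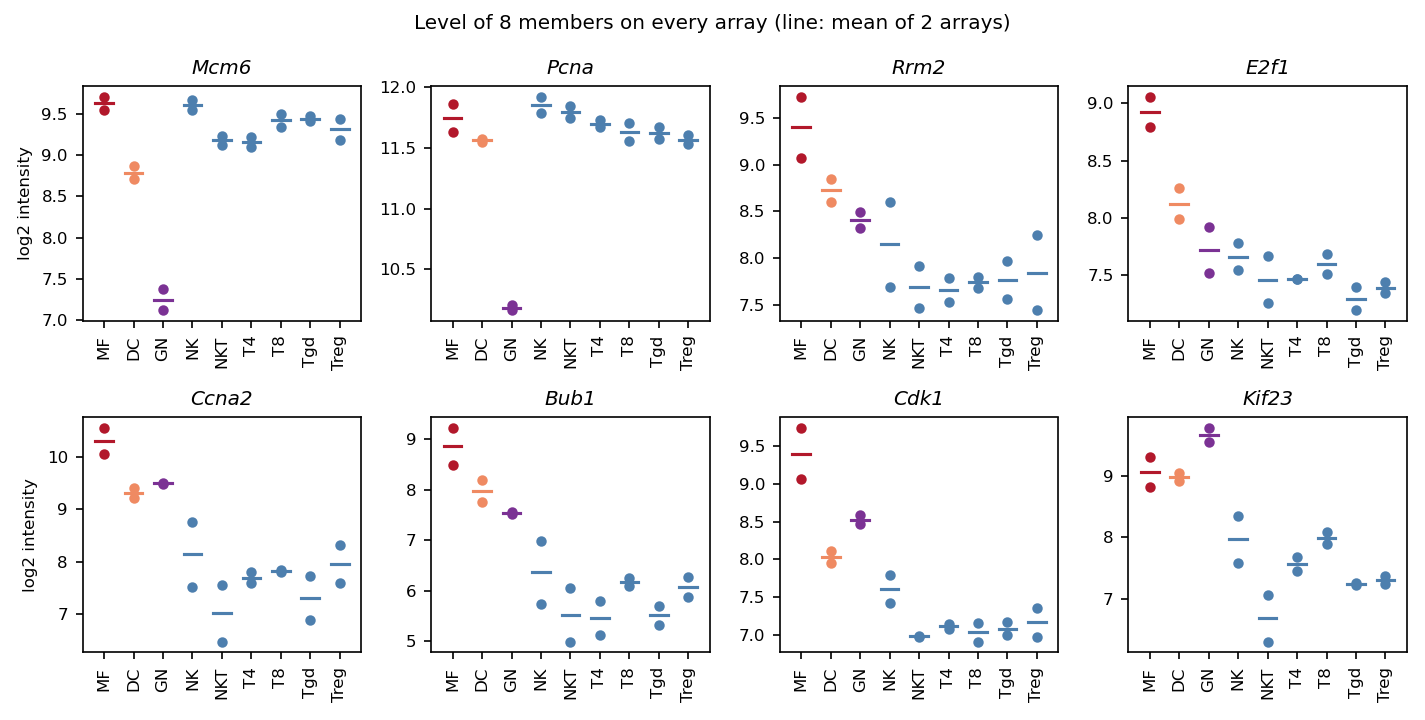
Log2 intensity of 4 S phase members (top row) and 4 mitosis members (bottom row) on every array, with a line at the mean of the 2 arrays of each population. Mcm6 and Pcna are lowest in GN, Rrm2 and E2f1 are highest in MF, and Ccna2, Bub1, Cdk1 and Kif23 lie above the lymphoid populations in MF, DC and GN.

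Centring each gene on the mean of its population means put the members on 1 scale. The median centred level of the mitosis members was 1.67 and 1.12 on the MF arrays, 0.53 and 0.74 on the DC arrays and 0.76 and 0.77 on the GN arrays, and on the lymphoid arrays it ran from -0.71 in NKT replicate 1 to 0.14 in NK replicate 2. The median of the S phase members was 0.81 and 0.58 in MF, -0.01 and 0.10 in DC and -0.49 and -0.43 in GN, and from -0.25 to 0.27 on the lymphoid arrays. The S phase median minus the mitosis median was -0.70 in MF, -0.59 in DC and -1.23 in GN, and it was 0.29 in NK, 0.41 in NKT, 0.38 in T4, 0.38 in T8, 0.51 in Tgd and 0.13 in Treg. Both lists were high in MF, only the mitosis list was high in DC, and in GN the 2 lists lay on opposite sides of their means. The Treg difference was -0.01 without Treg replicate 3 and 0.26 without Treg replicate 2, so its sign was not settled.

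**Figure D3:**
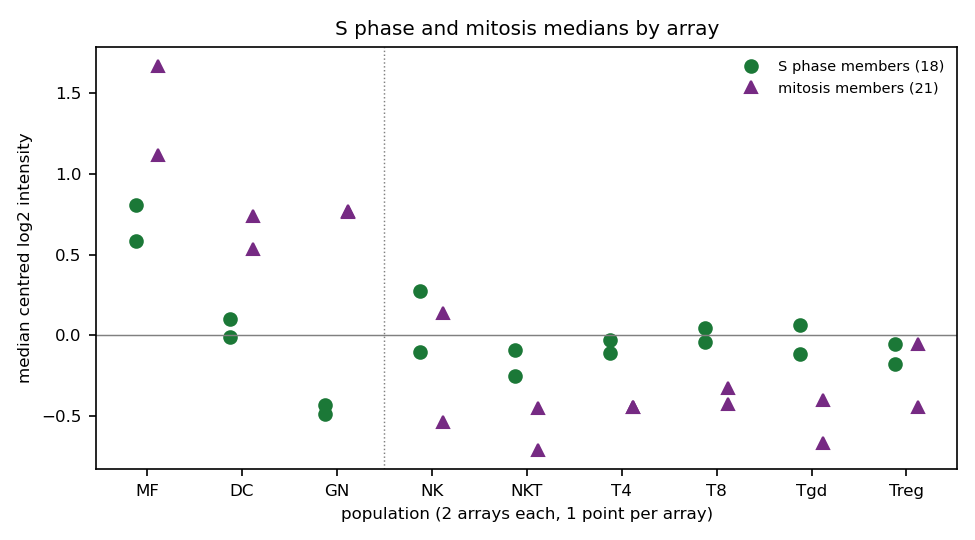
Median centred log2 intensity of the 18 S phase members (circles) and the 21 mitosis members (triangles), 1 point per array. In GN the S phase medians are -0.49 and -0.43 and the mitosis medians 0.76 and 0.77; in MF both kinds of median lie above 0.5.

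The profiles told the S phase genes apart. Pearson's r over the 9 population means, given as a description of points that share arrays, lay between 0.87 and 0.996 for each mitosis member against the mean of the others. Of the S phase members, Rrm2 (0.96), Cdc45 (0.95), Ccne2 (0.94), Cdc6 (0.91) and E2f1 (0.88) had an r over 0.85 with the mitosis mean. Mcm2 (-0.40), Mcm4 (-0.53), Mcm6 (-0.35), Mcm7 (-0.02), Pcna (-0.40) and Ccne1 (-0.41) had an r below 0, and the other 7 lay between. The split was drawn after the values were seen.

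Against the mean of the 6 lymphoid populations, MF had 7 S phase and 19 mitosis members that were higher and none that was lower, where 8.23% of all genes were higher and 4.78% lower. The median log2 difference was 0.74 for S phase members and 1.82 for mitosis members, against -0.08 for all genes. Bub1 was higher by 3.01 ± 0.28 (limma's log2 difference ± SE, adjusted p 5.32e-08) and Ccna2 by 2.64 ± 0.28 (adjusted p 3.28e-07). The S phase genes that were higher were Rrm1 (1.03 ± 0.12), Rrm2 (1.59 ± 0.22), Tyms (1.37 ± 0.14), Gins1 (1.53 ± 0.15), Uhrf1 (1.13 ± 0.12), E2f1 (1.44 ± 0.12) and Ccne2 (1.15 ± 0.17). No MCM gene was among them, and the differences of the 6 subunits lay between -0.03 for Mcm4 and 0.74 for Mcm3. The 2 mitosis members that did not pass were Cdc20 (0.52 ± 0.11) and Aurka (0.76 ± 0.10). On both MF arrays 12 of 18 S phase and 21 of 21 mitosis members lay above all 12 lymphoid arrays, as did 16.5% of all genes, and 11 and 15 of them lay above all 16 other arrays (10.4% of all genes); none lay below all 16, where 9.19% of all genes did. MF came from the peritoneal cavity, so tissue and cell type cannot be told apart.

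DC had 11 mitosis members higher than the lymphoid mean and no S phase member past the test in either direction, where 6.23% of all genes were higher and 3.43% lower. The median difference was 0.05 for S phase and 1.03 for mitosis members. Bub1 was higher by 2.12 ± 0.28 (limma, adjusted p 6.22e-06) and Ccna2 by 1.65 ± 0.28 (adjusted p 0.00011), and the others were Ccnb2, Aurkb, Top2a, Mki67, Kif11, Kif23, Cenpe, Nusap1 and Tpx2. The smallest of these 11 differences was that of Cenpe, 1.03 ± 0.15. Both DC arrays lay above all lymphoid arrays for 4 S phase members (Rrm2, Tyms, Uhrf1 and E2f1) and 18 mitosis members, against 11.6% of all genes, and below them for Mcm2, Mcm4 and Mcm6, against 15.9%. Without DC replicate 1, 2 S phase members were called higher.

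In GN the 2 lists lay apart. Mitosis members were higher in 12 cases, where 7.62% of all genes were higher, and 4 S phase members were lower, where 12.5% of all genes were. The median difference was 1.19 for mitosis members and -0.27 for S phase members, against 0.12 for all genes. Kif23 was higher by 2.21 ± 0.18 (limma, adjusted p 6.98e-09), and Mcm6 fell by 2.11 on the log2 scale with an SE of 0.10 (adjusted p 2.74e-12). The other 3 lower members were Mcm2 (-1.52 ± 0.10), Mcm7 (-1.15 ± 0.14) and Pcna (-1.51 ± 0.07). The other 11 higher members were Ccna2, Ccnb2, Cdk1, Bub1, Aurkb, Plk1, Top2a, Mki67, Kif11, Nusap1 and Tpx2, with differences from 1.19 ± 0.15 for Aurkb to 1.83 ± 0.28 for Ccna2. All 21 mitosis members lay above the 12 lymphoid arrays on both GN arrays, where 26.2% of all genes did, and 8 S phase members lay below them (the 6 MCM genes, Pcna and Rrm1), where 22.0% of all genes did. The 3 myeloid comparisons share the lymphoid arrays, so their calls are given side by side and are not independent of each other.

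**Figure D4:**
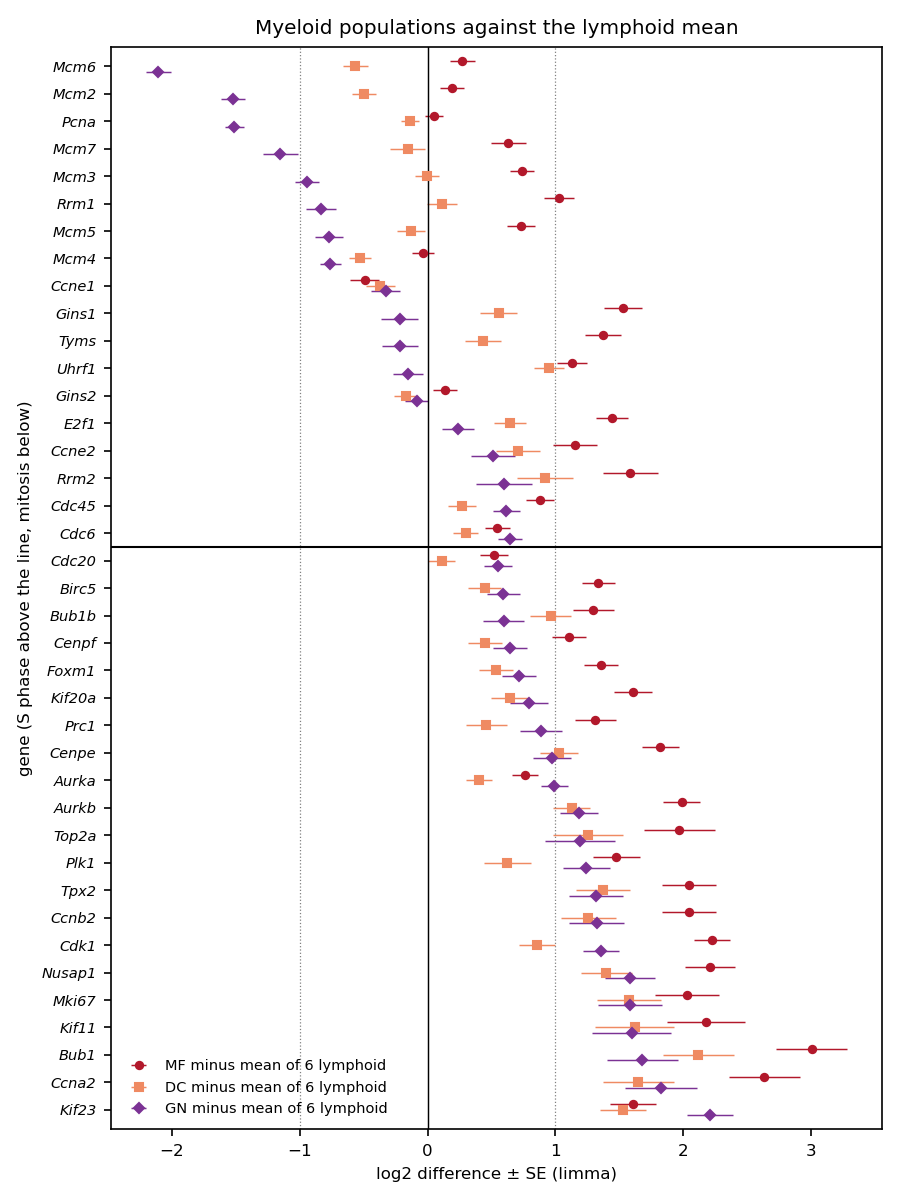
Log2 difference ± SE (limma) of MF, DC and GN from the mean of the 6 lymphoid populations for each member, with dotted lines at 2-fold. GN diamonds run from -2.11 for Mcm6 to 2.21 for Kif23, while MF circles reach 3.01 for Bub1.

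Between MF and GN, and between GN and DC, most members that passed were S phase genes. MF exceeded GN in 11 S phase members and in 1 mitosis member (Bub1, 1.32 ± 0.36, limma adjusted p 0.00467), where 14.1% of all genes were higher and 6.58% lower. The largest of these differences were 2.38 ± 0.13 for Mcm6 (adjusted p 4.66e-11) and 1.86 ± 0.15 for Rrm1 (adjusted p 1.27e-08), and no member was called lower. Both MF arrays lay above both GN arrays for 16 of 18 S phase and 15 of 21 mitosis members, where 31.2% of all genes did, and below them for Aurka and Kif23 alone, where 54.0% did. Without MF replicate 3 the mitosis count was 6, and without MF replicate 2 it was 0. GN was lower than DC in 4 S phase members, Mcm6 (-1.54 ± 0.13, adjusted p 1.69e-08), Pcna (-1.38 ± 0.09, adjusted p 1.44e-09), Mcm2 (-1.03 ± 0.13) and Uhrf1 (-1.10 ± 0.15), where 11.1% of all genes were lower and 5.77% higher, and no mitosis member passed. Both GN arrays lay below both DC arrays for 14 S phase and 2 mitosis members, where 28.5% of all genes did, and above them for 2 S phase and 10 mitosis members, where 53.5% did.

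MF exceeded DC in Cdk1 alone (1.37 ± 0.18, limma adjusted p 1.13e-05), where 5.89% of all genes were higher and 4.97% lower. That count rested on single arrays, with 14 members without MF replicate 3 and 6 without DC replicate 2. Both MF arrays nevertheless lay above both DC arrays for 17 of 18 S phase and 20 of 21 mitosis members, as they did for 34.9% of all genes.

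Within the lymphoid populations only 2 members passed limma's F test over 6 populations, where 9.95% of all genes did. Kif23 had levels of 8.35 and 7.58 in NK, 6.30 and 7.06 in NKT, 7.68 and 7.45 in T4, 8.09 and 7.88 in T8, 7.22 and 7.26 in Tgd and 7.37 and 7.24 in Treg (range 1.31, adjusted p 0.00227). T8 and NK had the highest means, with overlapping arrays, and NKT the lowest. NK replicate 3 lay below T4 replicate 2. Ccne1 had levels of 8.47 and 8.37 in NK, 7.70 and 7.83 in NKT, 8.40 and 8.16 in T4, 9.08 and 8.94 in T8, 8.26 and 8.31 in Tgd and 8.08 and 8.30 in Treg (range 1.24, adjusted p 0.000115). Its T8 arrays lay above and its NKT arrays below all other lymphoid arrays. The count of 2 became 8 without NK replicate 3, 6 without NKT replicate 2, 3 without Tgd replicate 3 and 1 without NKT replicate 1; in this last case the range of Kif23 was 0.93.

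No member passed limma's contrast of Treg against T4, where 0.521% of all genes were higher and 0.354% lower. An unadjusted p under 0.05 was found for 1 of 39 members (Aurkb, 0.45 ± 0.19) and for 2486 of all 19752 genes. Each lymphoid population against the mean of the other 5 gave no call either. Unadjusted p-values were under 0.05 for 13 of 39 members in NK, 13 in NKT, 2 in T4 and 4 in T8. Of all 19752 genes, 6145 were so in NK, 4489 in NKT, 3760 in T4 and 4705 in T8. The members thus did not stand out from all genes in NK, and had smaller shares than all genes in T4 and T8. In NKT their share was larger than that of all genes, though no member was called. At the full threshold, where no member was called, all genes were higher at 2.41% in NK, 1.03% in NKT and 0.557% in T4. They were higher at 0.461% in T8, 0.643% in Tgd and 0.952% in Treg. Lower shares were 1.82%, 0.764%, 0.77%, 1.06%, 0.137% and 0.795% in the same order. The mitosis members differed between arrays of 1 population: their median difference was -0.54 for MF replicate 3 minus replicate 2, -0.58 for NK replicate 3 minus replicate 2, 0.40 for NKT replicate 2 minus replicate 1 and -0.39 for Treg replicate 3 minus replicate 2. The median over all genes was at most 0.05 in size for each of these pairs. Replicate 2 was the higher in all of them. It was also the higher in DC (0.17) and GN (0.07), against replicate 1. In T4 and T8 replicate 3 minus replicate 2 gave -0.04 and -0.06, and in Tgd it gave 0.25. A shared effect of the replicate number on these genes was not tested. Without NK replicate 3, 5 mitosis members were called higher in NK and 1 lower in NKT, and without NKT replicate 2, 5 were called lower in NKT.

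Markers of other cell types were set beside these results. The summed intensity of 11 neutrophil precursor markers, which include the granule genes Mpo, Elane, Ltf and Camp, was 25453 and 31191 on the GN arrays, 2990 and 9366 on the DC arrays and 1716 and 1657 on the MF arrays, and 879 to 1191 on the lymphoid arrays. Of these markers 10 lay at least 2-fold above the lymphoid median on each GN array, 3 and 6 on the DC arrays and 1 on each MF array. Of the early granule genes, Mpo stood at 9.13 and 9.39 and Elane at 8.55 and 9.12 in GN. On the linear scale both were a small part of the GN sums, which other genes of the list carried. Thus precursor markers and mitosis genes were both high in GN; the part of such precursors in the mitosis levels was not tested.

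Mature neutrophil markers, 9 in all, summed to 62543 and 69299 in GN and to 4946 and 16857 in DC replicates 1 and 2, and to 499.5 to 2058.3 on the lymphoid arrays. All 9 lay at least 2-fold above the lymphoid median on both DC arrays, and 2 did on each MF array. DC replicate 1 held the lower granulocyte signal of the 2 and a mitosis median of 0.53, against 0.74 in replicate 2; the part of granulocytes in the DC result was not tested.

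Markers of further cell types also stood above the lymphoid median on the DC arrays. Of 6 blood progenitor markers, 3 lay at least 2-fold above the lymphoid median on each DC array, 1 on each MF array, and 1 and 0 on the GN arrays; their summed intensity was 8523 and 7706 in DC, 649.6 and 582.8 in MF and 1048 and 1015 in GN, against 913.1 to 3415.0 on the lymphoid arrays. Kit (12.13 and 11.96 in DC) and Flt3 (11.68 and 11.54 in DC), the second of which the DC gate itself selects and the dendritic cell list also holds, carried most of that DC sum, while Cd34 stood at 6.63 and 6.60. Of 11 B cell and plasma cell markers, 4 and 5 reached 2-fold on the DC arrays, 1 on each MF array and 2 on each GN array, with sums of 7123 and 10267 in DC, 5302 and 4856 in MF and 5361 and 5620 in GN, against 2463 to 4690 on the lymphoid arrays. Of 8 red pulp macrophage markers, 7 reached 2-fold on each DC array, 4 on each MF array and 2 and 5 on the GN arrays, with sums of 4242 and 8569 in DC, 22968 and 24310 in MF and 5800 and 6155 in GN, against 710.8 to 1536.0. Of 6 monocyte markers, 3 and 5 did on the DC arrays and 4 on each MF and GN array, with sums of 2131 and 4331 in DC, 7802 and 9336 in MF and 2897 and 2757 in GN, against 613.0 to 3856.4. DC replicate 2 had the higher sum of the DC arrays for the B cell, red pulp and monocyte lists and replicate 1 for the progenitor list; the part of these cell types in the mitosis levels was not tested. Of 11 erythroid precursor markers, none reached 2-fold above the lymphoid median in MF or GN and 1 did on DC replicate 2, and of 10 mesothelial and stromal markers none did on any myeloid array. Defining markers were high where the gates put them: 10 and 9 of 10 peritoneal macrophage markers were at least 2-fold above the lymphoid median on the MF arrays, and 8 of 10 dendritic cell markers on each DC array.

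**Figure D5:**
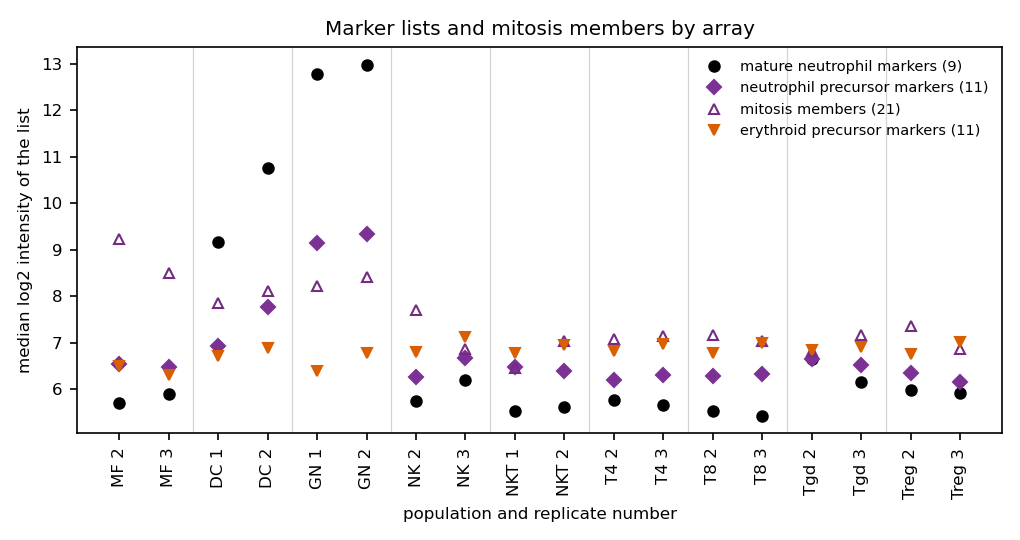
Median log2 intensity of the mature neutrophil, neutrophil precursor and erythroid precursor markers and of the mitosis members on each array, to be read across arrays within 1 list. Both neutrophil lists are highest on the GN arrays and next on DC replicate 2, the erythroid list is nearly flat, and the mitosis members are highest in MF.

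Other genes of the same processes, on lists without the members, were counted in the same contrasts. Of 49 other mitosis genes, 32 were higher and 1 lower in MF than in the lymphoid mean (8.23% and 4.78% of all genes), and 12 were higher and 1 lower in GN (7.62% and 12.5%). In DC only 4 of the 49 were higher and 1 lower, close to the 6.23% and 3.43% of all genes. Anln, which builds the contractile ring, was higher in MF by 2.77 ± 0.15, Ckap2l by 2.32 ± 0.13 and Hmmr by 1.82 ± 0.16. In GN the largest differences were those of Cks2, a small partner of Cdk1 (2.10 ± 0.13), Anln (1.70 ± 0.15) and Ckap2l (1.57 ± 0.13). Of 38 other replication genes, 5 were higher in MF, 1 was higher in DC, and 10 were lower and none higher in GN, against the same shares of all genes; the DC count is again no more than the background. MF led with Pola1 (1.32 ± 0.17), Pole (1.30 ± 0.14) and Chek1 (1.30 ± 0.12), the first 2 of them polymerase subunits, and GN was lowest in Pole2 (-1.97 ± 0.15), the maintenance methylase gene Dnmt1 (-1.79 ± 0.08) and Hells (-1.37 ± 0.17). MF exceeded GN in 18 of the 38 and was lower in none, where 14.1% of all genes were higher and 6.58% lower. The median difference of these replication genes was 0.52 in MF, -0.04 in DC and -0.58 in GN, and that of the other mitosis genes was 1.12 in MF, 0.46 in DC and 0.62 in GN.

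Outside all lists, the genes most like the mean of the mitosis members over the 9 population means were Glb1l, Parpbp, Prr11, Esco2, Neil3, H1f5, Adam9 and Chml, with r from 0.974 to 0.986. Most like the mean of the S phase members were Snx1, Vdac3, Acaca, Tbc1d19, Gstk1, Txndc5, Rpn1 and Mad2l2, with r from 0.965 to 0.989. All 16 genes were highest in MF, and the 8 genes like the S phase members were lowest in GN. This follows from their choice by likeness to those means and is no separate result.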

How the data were processed

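Per the submitters' processing notes, the deposited values were made with Affymetrix Power Tools and RMA, which corrects background, normalizes arrays and summarises the probes of a set; their versions are not given in the sources used here. The deposited table holds intensity on a linear scale, and log2 was taken. Gene names came from the platform annotation in GEO and were updated to NCBI RefSeq (GRCm38.p6). Of 24922 probe sets, 21425 named a single gene, 1399 named several and 2098 named none. For 921 genes with several such probe sets the brightest was used, which left 19752 genes.

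All 18 arrays entered 1 fit in limma 3.58.1 (R 4.3.3; lmFit, contrasts.fit, eBayes with a mean-variance trend), with 1 mean per population and no covariate, 9 residual and 7.69 prior degrees of freedom. Contrasts were two-sided, and p-values were adjusted by Benjamini-Hochberg over all genes. To pass, a gene needed an adjusted p under 0.05 and, beside it, a difference (or, in an F test, a span of population means) of 2-fold or more. The fit was tested on simulated data. With 2 arrays per population, precision is limited by their number.

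The members and all gene lists were chosen with earlier results of these data known. Named with full values are the 5 S phase and 7 mitosis members with the largest range among those past the F test, and the 2 members with the largest difference past the test in each contrast; of other lists, at most 3 genes. Of the genes on no list, the 8 most like each member list were named, without clone names. Promoter windows came from RefSeq, GRCm38.p6. Alternatives were quantile normalization, the mean of a gene's probe sets, a filter on dim genes, no trend, no minimum fold, a replicate block and each array left out.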

Additional observations from a re-analysis of the deposited data

How the results depend on the processing

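Of 600 re-computations of the values of named members, 599 kept their call and direction. The exception was Kif23 over the lymphoid populations (0.93 without NKT replicate 1, by the loss of 1 array). Named members had the largest values among those past the test, so their calls were unlikely to be lost. The 25 re-computations without a minimum fold could not lose a call. Counts over all members, given next, moved more. Without the 2-fold minimum, which can only enlarge counts, they were 4 over the lymphoid populations, 31 for DC and 34 for GN against the lymphoid mean, 25 for MF against DC, 27 for MF against GN, 18 for GN against DC, 6 for NK, 4 for NKT and 3 for T8. The S phase minus mitosis median was -1.31 in GN after quantile normalization, which shifted the all-gene median difference by at most 0.0976, and -0.50 in DC with means over members; the cause was not tested. With each array left out in turn, counts ran from 33 to 35 over 9 populations, 1 to 8 over the lymphoid ones, 22 to 27 in MF, 10 to 14 in DC, 16 to 18 in GN, 1 to 14 for MF against DC, 11 to 18 for MF against GN, 3 to 6 for GN against DC and 0 to 5 in NK and in NKT, and the GN median difference from -1.26 to -1.19. Of 54 sample pairs with the same replicate number, 28 had an r of deviations over 0.1 (range -0.24 to 0.59). The median r was 0.12, against -0.06 for different numbers. With 2 arrays per population, their deviations from the population mean are equal and opposite. Many pairs therefore repeat each other's r, and the pairs with different numbers are no separate comparison. Whether same-numbered arrays shared an effect was not tested. The main fit did not take the replicate number into account. With the replicate block, MF against DC gave 2 calls and no other of these counts moved by over 1.5 times.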

Other observations

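Of 12 cyclin, kinase and regulator genes that act in G1, before S phase, 8 passed limma's F test over the 9 populations, where 39.0% of all genes did, and the 3 with the largest ranges were Ccnd1 (4.42), Myc (4.37) and Ccnd2 (4.11). Ccnd1, a D cyclin, averaged 10.44 ± 0.02 in MF, 11.38 ± 0.04 in DC and 7.25 ± 0.21 in GN (SD, n = 2 each), and 6.96 to 7.21 in the lymphoid populations. Ccnd2, another D cyclin, went the other way, with 8.65 ± 0.40 in MF, 11.55 ± 0.01 in DC and 10.43 ± 0.14 in GN, and 12.35 to 12.76 in the lymphoid populations. Myc, a transcription factor of growth, averaged 10.87 ± 0.27 in MF, 9.48 ± 0.04 in DC and 7.09 ± 0.09 in GN, and 10.25 to 11.45 in the lymphoid populations. In GN, Cdk4, the kinase that D cyclins bind, was lower than the lymphoid mean by a log2 difference of -2.76 ± 0.07.

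Of 19 cell cycle inhibitors and quiescence genes, 1 was higher and 5 were lower in MF than in the lymphoid mean, where 8.23% of all genes were higher and 4.78% lower. In DC 0 were higher and 2 lower (6.23% and 3.43% of all genes), and in GN 3 were higher and 4 lower (7.62% and 12.5%). The single higher gene in MF, the 2 lower genes in DC and the counts in GN are too few to set the list apart from the background. Foxo1, a transcription factor of resting lymphocytes, was lower in MF (-1.82 ± 0.08), DC (-1.94 ± 0.08) and GN (-3.82 ± 0.08). Tob1, an inhibitor of proliferation, averaged 11.43 ± 0.22 in GN and 8.73 to 9.41 in the lymphoid populations, a difference of 2.41 ± 0.12. Klf2, a quiescence factor of T cells, averaged 11.12 ± 0.06 in MF, 9.25 ± 0.21 in DC and 11.65 ± 0.38 in GN, against 8.82 in NKT and 10.19 to 10.54 in the other lymphoid populations. GN held high levels of mitosis members, of Tob1 and of Klf2 on the same arrays, while Foxo1 was low. In MF Klf2 also averaged above every lymphoid population. The list as a whole went both ways in GN, with 3 genes higher and 4 lower.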
